A study of Homo sapiens with 8 samples.

Results

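The 39 human HOX genes encode homeobox transcription factors, and 27 of them were measured here by at least 1 transcript cluster that carries their symbol alone. With 14 genes of the TALE homeobox class (MEIS, PBX, IRX, TGIF and MKX) they make up the 41 genes described here, out of 14884 genes measured in this way. The members were chosen by symbol: a transcript cluster, the array's unit of measurement, was taken where its only annotated symbol was HOXA, HOXB, HOXC or HOXD with a number, MEIS, PBX, IRX or TGIF with a single digit, or MKX. This gave 48 of 16098 clusters with exactly 1 symbol, and where a gene had several clusters, the brightest stands for it. By cluster of origin, 1 of 11 HOXA genes, 10 of 10 HOXB genes, 7 of 9 HOXC genes and 9 of 9 HOXD genes were measured, together with 14 of 16 TALE genes.

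HOX genes lie in 4 chromosomal clusters and are expressed in the embryo in an order along the body axis that follows their order in the cluster, which gives each segment its identity. MEIS and PBX proteins bind DNA together with HOX proteins and sharpen their choice of sites, whereas MKX, IRX and TGIF proteins share the TALE homeodomain, which has extra residues in one of its loops, but act largely on their own targets. The adult forebrain is largely free of HOX expression, and HOX genes are often expressed in glioblastoma.

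The cells were A172, an established human glioblastoma line, infected with lentivirus that carried a doxycycline-inducible (pLKO/TetON) short hairpin RNA and selected with puromycin. The 4 groups were shHDAC2 DOX(+), in which the hairpin targets HDAC2 and doxycycline was given at 2.5 μg/ml for 2 days, shHDAC2 DOX(-), the same cells with no doxycycline, shControl DOX(+), with a control hairpin and the same doxycycline treatment, and shControl DOX(-), with the control hairpin and no doxycycline. Each group had 2 arrays, labelled as biological replicates. HDAC2 is a class I histone deacetylase. The comparison upon doxycycline asks which transcripts differ when the hairpin is induced, and comparisons with shControl cells are given beside it. All 4 groups went through infection and selection, and the sources used here do not say whether the cells of a construct were 1 clone or a pool. For 4 of the 8 samples, both shControl DOX(+) and both shHDAC2 DOX(-), the label of the cell source names the other construct than the title and the treatment field, and the groups follow the title and treatment.

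The targeted gene and the arrays as a whole were checked first. HDAC2 had log2 signals of 4.95 and 5.34 in shHDAC2 DOX(+) cells, 5.69 and 5.80 in shHDAC2 DOX(-) cells, 6.14 and 6.15 in shControl DOX(+) cells, and 6.42 and 6.30 in shControl DOX(-) cells. It was lower upon doxycycline in shHDAC2 cells (log2 difference -0.60, adjusted p = 0.0115) and was also lower in shHDAC2 DOX(-) cells than in shControl DOX(-) cells (log2 difference -0.61, adjusted p = 0.0101, limma). In shControl cells the difference upon doxycycline was -0.21 (adjusted p = 0.956), and -0.38 separated the shHDAC2 from the shControl response (adjusted p = 0.243). The 2 shHDAC2 DOX(-) arrays were the least like the rest. Over all 53617 deposited clusters they correlated by 0.950 to 0.954 with the other 6 arrays and by 0.986 with each other. The other 6 correlated by 0.982 to 0.991 among themselves. Among the markers of the line, VIM (vimentin) measured 9.34 and 9.39 in shHDAC2 DOX(+) cells, 10.27 and 10.34 in shHDAC2 DOX(-) cells, and 9.67 to 9.77 in shControl cells, whereas NES (nestin) was lower in shHDAC2 DOX(-) cells than in shControl DOX(-) cells (log2 difference -2.29 ± 0.14 SE, adjusted p = 4.24e-06). Of the 8 markers of the line, NES and SOX2 rose and VIM and CD44 fell upon doxycycline in shHDAC2 cells (15% and 15.6% of all clusters). The other 4 were not called there. CD44 was also lower in shHDAC2 DOX(+) cells than on the 4 shControl arrays. The astrocyte marker AQP4 stayed at 3.15 or less on all 8 arrays, below the median cluster signal of 3.66. CD14, PECAM1 and EPCAM, markers of leukocytes, endothelium and epithelium, were not called in any comparison, which does not show whether they were expressed. SYT1, a neuronal marker, was lower on shHDAC2 DOX(-) than on shControl DOX(-) arrays (log2 difference -0.75 ± 0.14 SE, adjusted p = 0.00316). The cause of this was not tested, and every comparison that holds these arrays rests on them. They are also among the arrays with the conflicting source label, so these comparisons rest on the title and the treatment field as well.

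Differences are given on the log2 scale, with the standard error of the linear model, and a gene is called where limma's two-sided p, adjusted by Benjamini-Hochberg over all 16098 clusters, was under 0.05. The signals of different genes cannot be compared with each other, since their probes differ. In bulk RNA, fewer cells that express a gene and less RNA per cell cannot be told apart.

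Upon doxycycline in shHDAC2 cells, 21 of the 41 genes rose and 4 fell, at a background of 15% of all clusters called higher and 15.6% called lower. The rise covered HOXB2 to HOXB9 without a gap, HOXB13, HOXC9, HOXC10, HOXC11, HOXC13, HOXD9, HOXD10, HOXD11, MEIS1, MEIS2, PBX2, PBX3 and MKX, and the genes that fell were HOXC8, IRX3, IRX5 and TGIF1. The median difference was 0.42 over the 41 genes and -0.01 over all clusters. In shControl cells, doxycycline changed none of the 41 genes by limma's adjusted p, at a background of 0% of all clusters, with 1 of the 48 clusters at an unadjusted p under 0.05 and 868 of all 16098. The median difference there was 0.01, with single genes between -0.40 and 0.31.

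The shHDAC2 DOX(-) arrays lay on 1 side of all other groups for most of these genes. Compared with shControl DOX(-) cells, shHDAC2 DOX(-) cells were lower for 20 of 41 genes and higher for 2 (HOXC8 and IRX3), at a background of 16.3% of clusters lower and 13.7% higher, with a median of -0.34 over the 41 genes and 0.02 over all clusters. For 19 of the 20 lower genes, both shHDAC2 DOX(-) arrays were below the other 6 arrays, and for PBX4 they overlapped. Of the 20, 18 were also higher upon doxycycline in shHDAC2 cells, a comparison that uses the same shHDAC2 DOX(-) arrays. HOXD13 and PBX4 were not called there. The 20 were called because their shHDAC2 DOX(-) signals were low, and neither share was counted over all clusters. Nothing particular to these genes is therefore read from the 19 or the 18.

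Few of these genes were called between shHDAC2 DOX(+) and shControl cells. Against the 4 shControl arrays together, HOXC13 and PBX2 were higher and MEIS1 was lower in shHDAC2 DOX(+) cells, at a background of 1.25% of clusters higher and 4.7% lower, and over the 20 genes above the differences lay between -0.60 and 0.77. Against shControl DOX(+) cells alone, MEIS1 was lower and no gene was higher, at a background of 2.89% lower and 0.77% higher. The responses to doxycycline differed between shHDAC2 and shControl cells for 16 genes, 15 with the larger rise in shHDAC2 cells and 1 (IRX3) with the larger fall, at a background of 9.57% of clusters higher and 10% lower. The plot of differences with their intervals shows all 41 genes in 3 of these comparisons.

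**Figure D1:**
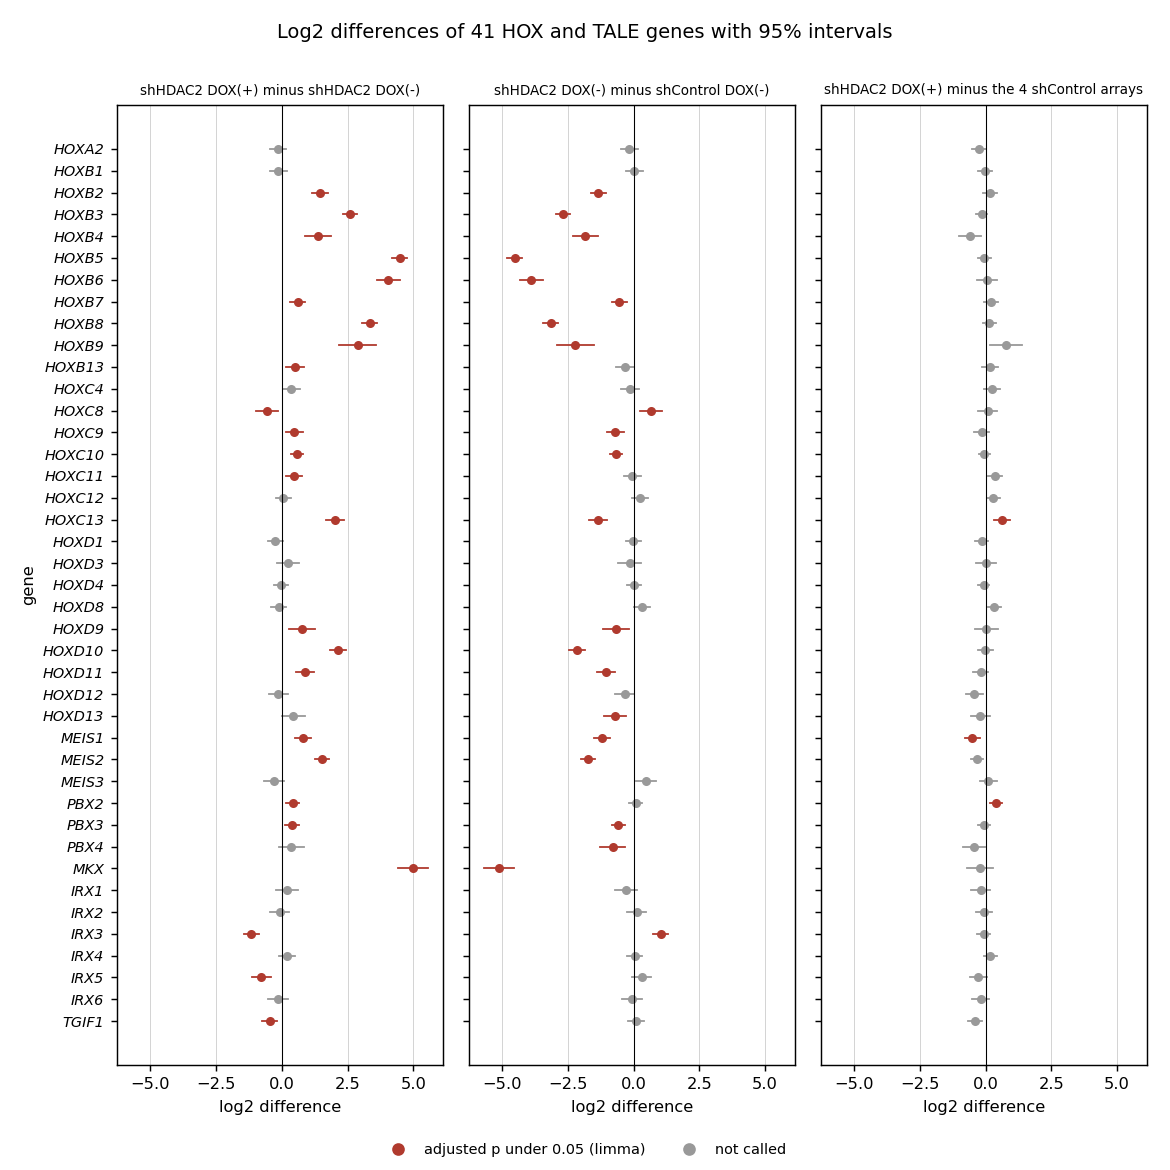
Log2 differences of the 41 genes (rows) with 95% intervals in 3 comparisons, red where limma's adjusted p was under 0.05 and grey otherwise. In the left panel (shHDAC2 DOX(+) minus shHDAC2 DOX(-)) 21 genes lie to the right of 0 in red, in the middle panel (shHDAC2 DOX(-) minus shControl DOX(-)) 20 lie to the left, and in the right panel (shHDAC2 DOX(+) minus the 4 shControl arrays) 3 are red and all lie between -0.60 and 0.77.

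The HOXB genes, which lie on chromosome 17 in the order HOXB1 to HOXB9 with HOXB13 farther along, gave the widest changes among the HOX genes. Upon doxycycline in shHDAC2 cells 9 of 10 rose, and in shHDAC2 DOX(-) cells 8 of 10 were lower than in shControl DOX(-) cells, with medians of 2.02 and -2.03. Over all clusters 15% rose and 16.3% were lower in these comparisons, with medians of -0.01 and 0.02. HOXB5 had log2 signals of 7.84 and 7.82 in shHDAC2 DOX(+), 3.21 and 3.48 in shHDAC2 DOX(-), 7.95 and 7.80 in shControl DOX(+) and 7.95 and 7.78 in shControl DOX(-) cells. Both shHDAC2 DOX(-) arrays were below the median cluster signal, and the other 6 arrays lay close together. HOXB5, which in the mouse marks long-term haematopoietic stem cells, rose 22.4-fold upon doxycycline in shHDAC2 cells (log2 difference 4.48 ± 0.13 SE, adjusted p = 6.39e-08) and was 23.0-fold lower on shHDAC2 DOX(-) than on shControl DOX(-) arrays (log2 difference -4.52 ± 0.13 SE, adjusted p = 6.48e-08). Against the 4 shControl arrays, shHDAC2 DOX(+) cells differed by -0.04 (95% interval -0.30 to 0.21). The fold sizes are uncertain where a group lies below the median cluster signal, as it did here and for HOXB8, HOXB13 and HOXC9, or where 1 of its arrays does, as for HOXD9, HOXD13 and MKX, since array signals level off at the dim end.

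HOXB6 measured 8.08 and 8.24 on shHDAC2 DOX(+) and 3.80 and 4.43 on shHDAC2 DOX(-) arrays, against 8.11 and 8.27 on shControl DOX(+) and 7.93 and 8.09 on shControl DOX(-) arrays. HOXB6 lies next to HOXB5, and RefSeq places both within the span of the antisense gene HOXB-AS3. An overlap of spans alone does not show shared signal, which was not tested. HOXB6 rose by a log2 difference of 4.05 ± 0.19 (SE, adjusted p = 8.75e-07) upon doxycycline in shHDAC2 cells, and was 14.9-fold lower on shHDAC2 DOX(-) than on shControl DOX(-) arrays. HOXB8 signals were 6.73 and 6.93 with doxycycline and 3.61 and 3.37 without it in shHDAC2 cells, and 6.73 and 6.72 with and 6.64 and 6.65 without it in shControl cells. HOXB8, known for its block of myeloid differentiation, kept the same order of groups, with both shHDAC2 DOX(-) arrays far below the rest. Its log2 differences were 3.34 ± 0.13 (SE, adjusted p = 2.07e-07) upon doxycycline in shHDAC2 cells and -3.15 ± 0.13 (SE, adjusted p = 3.03e-07) for shHDAC2 DOX(-) against shControl DOX(-) cells.

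HOXB9 had log2 signals of 7.87 and 8.05 in shHDAC2 DOX(+), 5.67 and 4.45 in shHDAC2 DOX(-), 7.14 and 7.06 in shControl DOX(+) and 7.27 and 7.30 in shControl DOX(-) cells. The shHDAC2 DOX(-) replicates of HOXB9, which patterns the thoracic skeleton in the mouse, were farther apart than those of any other member (1.22), yet both stayed below the other groups, and both shHDAC2 DOX(+) arrays were above all shControl arrays. HOXB9 rose upon doxycycline in shHDAC2 cells by 2.90 ± 0.31 (SE, adjusted p = 0.000123). Its difference between shHDAC2 DOX(+) cells and the 4 shControl arrays, 0.77 ± 0.27 (SE, adjusted p = 0.150), did not pass the threshold. HOXB3 measured 7.49 and 7.53 on shHDAC2 DOX(+) and 4.88 and 4.94 on shHDAC2 DOX(-) arrays, against 7.64 and 7.83 on shControl DOX(+) and 7.57 and 7.61 on shControl DOX(-) arrays. HOXB3 rose by 2.60 ± 0.11 (SE, adjusted p = 4.81e-07) upon doxycycline in shHDAC2 cells and differed by -2.68 ± 0.11 (SE, adjusted p = 3.97e-07) between shHDAC2 DOX(-) and shControl DOX(-) cells. RefSeq places HOXB4 and the microRNA gene MIR10A within the span of HOXB3.

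HOXB2 signals were 7.65 and 7.65 with doxycycline and 6.30 and 6.10 without it in shHDAC2 cells, and 7.52 and 7.29 with and 7.62 and 7.47 without it in shControl cells. HOXB2, a gene of hindbrain segment identity, was lower on both shHDAC2 DOX(-) arrays than on any other array. Its log2 differences were 1.45 ± 0.13 (SE, adjusted p = 4.12e-05) upon doxycycline in shHDAC2 cells and -1.34 ± 0.13 (SE, adjusted p = 7.02e-05) for shHDAC2 DOX(-) against shControl DOX(-) cells. HOXB4 had log2 signals of 5.74 and 5.95 in shHDAC2 DOX(+), 4.20 and 4.71 in shHDAC2 DOX(-), 6.86 and 6.34 in shControl DOX(+) and 6.18 and 6.40 in shControl DOX(-) cells. For HOXB4, which promotes self-renewal of haematopoietic stem cells, the shHDAC2 DOX(+) arrays were above shHDAC2 DOX(-) and below every shControl array. HOXB4 rose by 1.38 ± 0.21 (SE, adjusted p = 0.00109) upon doxycycline in shHDAC2 cells, and its difference between shHDAC2 DOX(+) cells and the 4 shControl arrays was -0.60 ± 0.18 (SE, adjusted p = 0.102). The difference between the doxycycline responses of HOXB4, 1.07 ± 0.30 (SE, adjusted p = 0.0365), was lost without shHDAC2 DOX(-) replicate 1, either shHDAC2 DOX(+) array, either shControl DOX(-) array or shControl DOX(+) replicate 2 (log2 difference 0.81 to 1.18, adjusted p 0.0591 to 0.114), and with a replicate block (adjusted p = 0.052).

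HOXB7 measured 6.01 and 6.02 on shHDAC2 DOX(+) and 5.28 and 5.56 on shHDAC2 DOX(-) arrays, against 5.60 and 5.76 on shControl DOX(+) and 6.03 and 5.89 on shControl DOX(-) arrays. HOXB7 is a gene often overexpressed in tumours. The gap between its shHDAC2 DOX(-) arrays and the lowest of the other arrays was 0.036, so the groups nearly touched. HOXB7 rose by 0.60 ± 0.13 (SE, adjusted p = 0.00742) upon doxycycline in shHDAC2 cells. HOXB7 lost this call without shHDAC2 DOX(-) replicate 1 (log2 difference 0.46, adjusted p = 0.0526), and its difference of -0.54 between shHDAC2 DOX(-) and shControl DOX(-) cells was lost without shHDAC2 DOX(-) replicate 1 or shControl DOX(-) replicate 1 (log2 difference -0.47 to -0.40, adjusted p 0.0853 to 0.0868). HOXB13 signals were 4.28 and 3.97 with doxycycline and 3.68 and 3.55 without it in shHDAC2 cells, and 4.09 and 3.79 with and 3.84 and 4.04 without it in shControl cells. HOXB13, known for its expression in the prostate, was called upon doxycycline in shHDAC2 cells only (0.51 ± 0.15 SE, adjusted p = 0.0344), and the call was lost without either shHDAC2 DOX(-) array or shHDAC2 DOX(+) replicate 1 (log2 difference 0.35 to 0.57, adjusted p 0.0665 to 0.200). HOXB1, at the other end of the cluster, stayed between 2.74 and 3.12 on the 8 arrays and was not called.

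**Figure D2:**
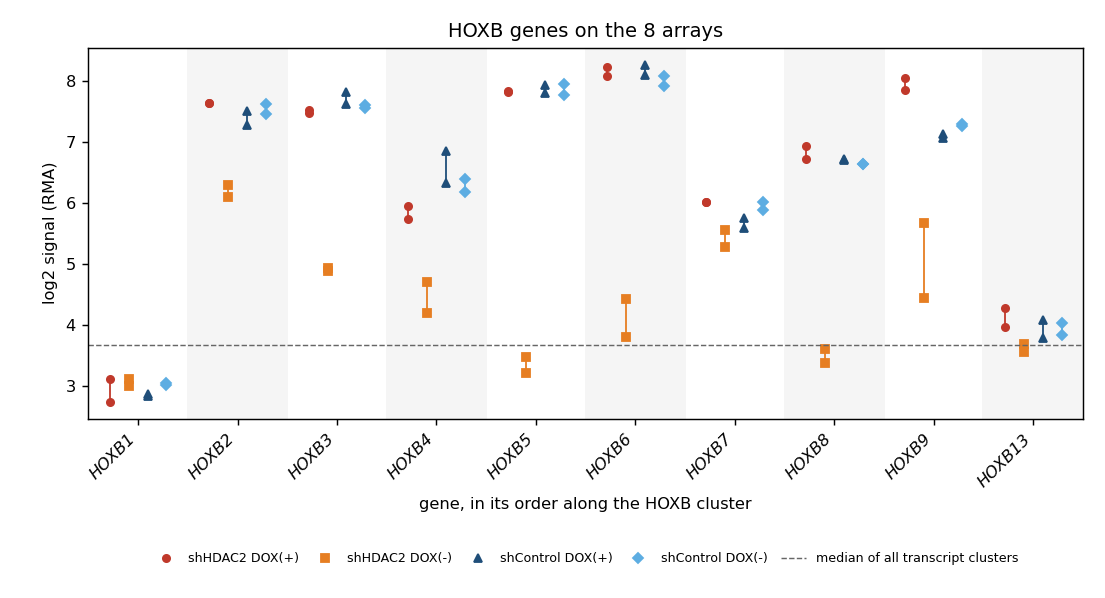
Log2 signals (vertical axis) of the 10 HOXB genes in their chromosomal order, with 1 point per array, 2 arrays per group joined by a line, and the median cluster signal of 3.66 dashed. From HOXB2 to HOXB9 the orange squares (shHDAC2 DOX(-)) lie below all other points, whereas for HOXB1 and HOXB13 they do not stand far apart.

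Of the 7 HOXC genes, 4 rose and 1 fell upon doxycycline in shHDAC2 cells, where 15% of all clusters rose and 15.6% fell. On shHDAC2 DOX(-) arrays 3 were lower and 1 was higher than on shControl DOX(-) arrays, at a background of 16.3% and 13.7%. HOXC13 had log2 signals of 6.55 and 6.34 in shHDAC2 DOX(+), 4.61 and 4.25 in shHDAC2 DOX(-), 5.86 and 5.93 in shControl DOX(+) and 5.90 and 5.65 in shControl DOX(-) cells. HOXC13, a regulator of hair keratin genes, was lowest in shHDAC2 DOX(-) cells, and both shHDAC2 DOX(+) arrays were above every shControl array. It rose by 2.01 ± 0.15 (SE, adjusted p = 1.62e-05) upon doxycycline in shHDAC2 cells and differed by -1.34 ± 0.15 (SE, adjusted p = 0.000194) between shHDAC2 DOX(-) and shControl DOX(-) cells. The excess of shHDAC2 DOX(+) cells over the 4 shControl arrays, 0.61 ± 0.13 (SE, adjusted p = 0.0317), was lost without either shHDAC2 DOX(+) array, shControl DOX(-) replicate 2 or either shControl DOX(+) array (log2 difference 0.51 to 0.71, adjusted p 0.0747 to 0.236). HOXC10 measured 5.05 and 4.97 on shHDAC2 DOX(+) and 4.43 and 4.44 on shHDAC2 DOX(-) arrays, against 5.03 and 4.99 on shControl DOX(+) and 5.13 and 5.09 on shControl DOX(-) arrays. HOXC10, a gene of lumbar motor neurons, was lower in shHDAC2 DOX(-) cells by a small and even margin, with differences of 0.57 ± 0.10 (SE, adjusted p = 0.00268) upon doxycycline in shHDAC2 cells and -0.67 ± 0.10 (SE, adjusted p = 0.00110) for shHDAC2 DOX(-) against shControl DOX(-) cells.

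HOXC9 signals were 4.13 and 3.98 with doxycycline and 3.65 and 3.51 without it in shHDAC2 cells, and 3.96 and 4.31 with and 4.33 and 4.22 without it in shControl cells. HOXC9, a gene of thoracic motor neurons, was below the median cluster signal on both shHDAC2 DOX(-) arrays, and differed by -0.70 ± 0.14 (SE, adjusted p = 0.00539) between shHDAC2 DOX(-) and shControl DOX(-) cells. Its rise upon doxycycline in shHDAC2 cells, 0.47 ± 0.14 (SE, adjusted p = 0.0334), was lost without either shHDAC2 DOX(-) array or either shHDAC2 DOX(+) array (log2 difference 0.39 to 0.55, adjusted p 0.0590 to 0.161). HOXC8 measured 4.22 and 4.82 on shHDAC2 DOX(+) and 5.15 and 5.01 on shHDAC2 DOX(-) arrays, against 4.37 and 4.55 on shControl DOX(+) and 4.33 and 4.48 on shControl DOX(-) arrays. HOXC8, its neighbour, ran the other way: both shHDAC2 DOX(-) arrays were above all others. HOXC8 fell by 0.56 ± 0.19 (SE, adjusted p = 0.0492) upon doxycycline in shHDAC2 cells. HOXC8 lost this call without either shHDAC2 DOX(-) array, shHDAC2 DOX(+) replicate 1, either shControl DOX(-) array or either shControl DOX(+) array (log2 difference -0.63 to -0.26, adjusted p 0.0644 to 0.281), and its difference of 0.67 between shHDAC2 DOX(-) and shControl DOX(-) cells was lost without either shHDAC2 DOX(-) array or either shControl DOX(-) array (log2 difference 0.60 to 0.75, adjusted p 0.0510 to 0.118).

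HOXC11 had log2 signals of 4.49 and 4.10 in shHDAC2 DOX(+), 3.76 and 3.88 in shHDAC2 DOX(-), 3.98 and 4.01 in shControl DOX(+) and 3.90 and 3.85 in shControl DOX(-) cells. RefSeq shows HOXC11 overlapping the noncoding gene HOTAIR. HOXC11 was called upon doxycycline in shHDAC2 cells (0.47 ± 0.14 SE, adjusted p = 0.0319), where the groups did not overlap, and the call was lost without either shHDAC2 DOX(-) array or shHDAC2 DOX(+) replicate 1 (log2 difference 0.28 to 0.53, adjusted p 0.0626 to 0.190). HOXC12 measured 5.19 and 4.88 on shHDAC2 DOX(+) and 5.02 and 4.95 on shHDAC2 DOX(-) arrays, against 4.76 and 4.72 on shControl DOX(+) and 4.71 and 4.78 on shControl DOX(-) arrays. HOXC4 signals were 4.58 and 4.21 with doxycycline and 4.02 and 4.03 without it in shHDAC2 cells, and 4.11 and 4.18 with and 4.02 and 4.29 without it in shControl cells. HOXC4 and HOXC12 were not called in any comparison. RefSeq places HOXC5 and HOXC6, which were not analysed here, within the span of HOXC4.

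Among the 9 HOXD genes, 3 neighbours, HOXD9, HOXD10 and HOXD11, rose upon doxycycline in shHDAC2 cells (33.3%, beside 15% of all clusters). The same 3 were lower, with HOXD13, on shHDAC2 DOX(-) than on shControl DOX(-) arrays (44.4%, beside 16.3% of all clusters). HOXD10 had log2 signals of 7.64 and 7.92 in shHDAC2 DOX(+), 5.55 and 5.72 in shHDAC2 DOX(-), 7.67 and 7.88 in shControl DOX(+) and 7.75 and 7.83 in shControl DOX(-) cells. HOXD10, a gene of lumbar motor neurons and a known target of miR-10b, was lower on both shHDAC2 DOX(-) arrays, while the other 3 groups overlapped. It rose 4.41-fold upon doxycycline in shHDAC2 cells (2.14 ± 0.14 SE, adjusted p = 5.35e-06) and was 4.44-fold lower on shHDAC2 DOX(-) than on shControl DOX(-) arrays (-2.15 ± 0.14 SE, adjusted p = 5.81e-06). HOXD11 measured 6.12 and 6.18 on shHDAC2 DOX(+) and 5.07 and 5.49 on shHDAC2 DOX(-) arrays, against 6.25 and 6.45 on shControl DOX(+) and 6.31 and 6.35 on shControl DOX(-) arrays. HOXD11, which shapes the forearm in the mouse, rose by 0.87 ± 0.15 (SE, adjusted p = 0.00226) upon doxycycline in shHDAC2 cells, while its difference between the doxycycline responses, 0.85 (adjusted p = 0.0237), was lost without shHDAC2 DOX(-) replicate 1, either shHDAC2 DOX(+) array, either shControl DOX(-) array or shControl DOX(+) replicate 1 (log2 difference 0.64 to 0.88, adjusted p 0.0551 to 0.0845).

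HOXD9 signals were 4.28 and 4.92 with doxycycline and 3.60 and 4.08 without it in shHDAC2 cells, and 4.69 and 4.53 with and 4.56 and 4.47 without it in shControl cells. The shHDAC2 DOX(+) replicates of HOXD9 differed by 0.635, more than those of any other member. HOXD9 rose by 0.76 ± 0.22 (SE, adjusted p = 0.0284) upon doxycycline in shHDAC2 cells. HOXD9 lost this call without shHDAC2 DOX(-) replicate 1 or shHDAC2 DOX(+) replicate 2 (log2 difference 0.44 to 0.51, adjusted p 0.170 to 0.179), and its difference of -0.68 between shHDAC2 DOX(-) and shControl DOX(-) cells was lost without shHDAC2 DOX(-) replicate 1, either shControl DOX(-) array or either shControl DOX(+) array (log2 difference -0.72 to -0.43, adjusted p 0.0625 to 0.249). HOXD13 had log2 signals of 4.28 and 3.94 in shHDAC2 DOX(+), 3.80 and 3.53 in shHDAC2 DOX(-), 4.38 and 4.14 in shControl DOX(+) and 4.58 and 4.15 in shControl DOX(-) cells. HOXD13, mutated in synpolydactyly, was called only for shHDAC2 DOX(-) against shControl DOX(-) cells (-0.70 ± 0.19 SE, adjusted p = 0.0206). HOXD13 lost this call without shHDAC2 DOX(-) replicate 2 or shControl DOX(-) replicate 1 (log2 difference -0.56 to -0.48, adjusted p 0.113 to 0.145).

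HOXD12, between HOXD11 and HOXD13, was not called. HOXD12 measured 3.51 and 3.78 on shHDAC2 DOX(+) and 3.90 and 3.65 on shHDAC2 DOX(-) arrays, against 3.90 and 4.14 on shControl DOX(+) and 3.95 and 4.29 on shControl DOX(-) arrays. HOXD4 signals were 4.97 and 4.80 with doxycycline and 4.89 and 4.93 without it in shHDAC2 cells, and 5.003 and 5.05 with and 4.96 and 4.84 without it in shControl cells. HOXD4 was nearly level over the 8 arrays, and its second cluster was not called either. HOXD8 had log2 signals of 4.85 and 5.01 in shHDAC2 DOX(+), 5.20 and 4.91 in shHDAC2 DOX(-), 4.47 and 4.45 in shControl DOX(+) and 4.67 and 4.81 in shControl DOX(-) cells. HOXD3 measured 4.02 and 3.48 on shHDAC2 DOX(+) and 3.37 and 3.65 on shHDAC2 DOX(-) arrays, against 3.68 and 3.91 on shControl DOX(+) and 3.75 and 3.56 on shControl DOX(-) arrays. Neither HOXD8 nor HOXD3, which overlaps HOXD4 in RefSeq, was called in any comparison. HOXD1 and HOXA2, the only HOXA gene here, had means below the median cluster signal in every group and were not called.

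**Figure D3:**
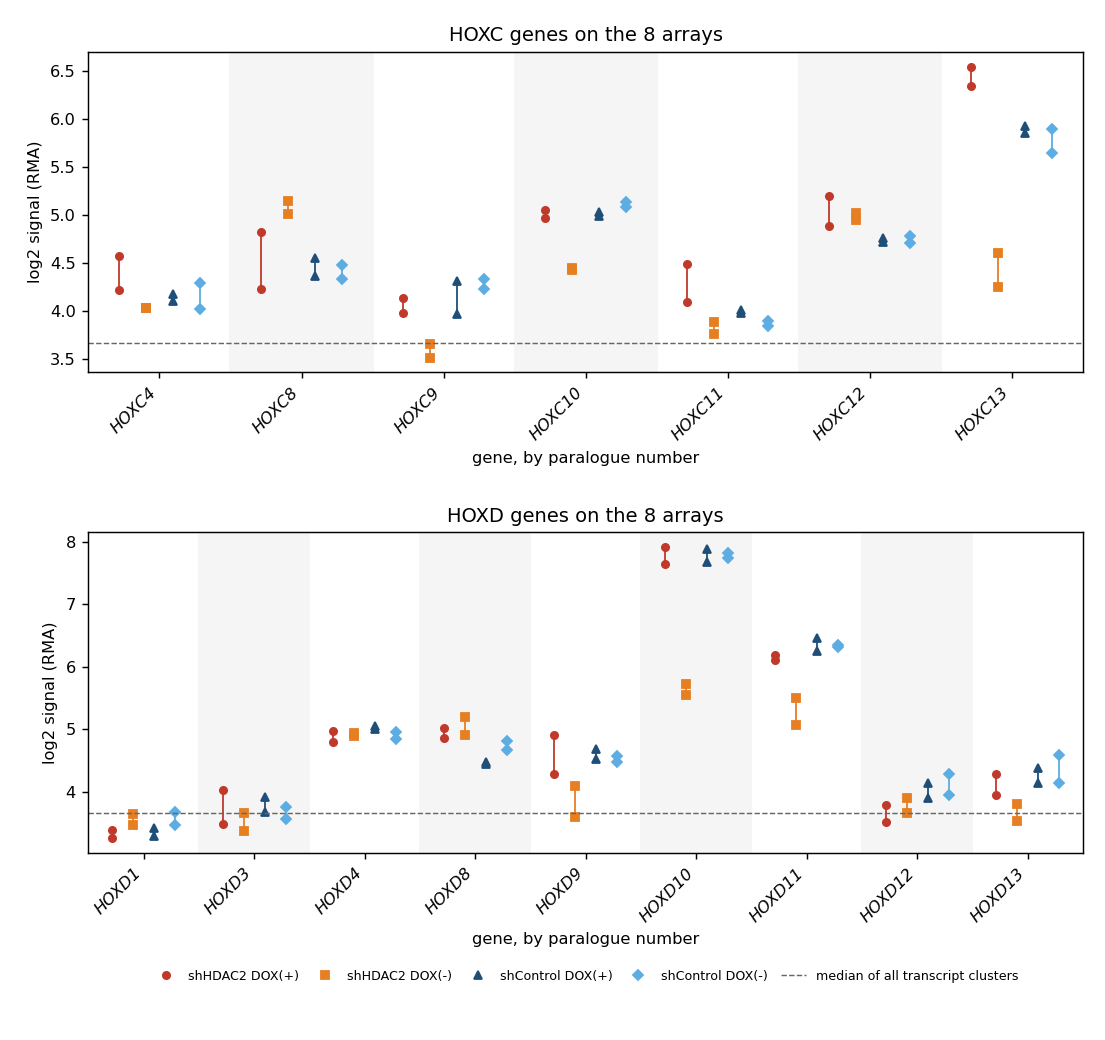
Log2 signals of the 7 HOXC genes (top) and the 9 HOXD genes (bottom), by paralogue number, with 1 point per array, 2 arrays per group joined by a line, and the median cluster signal dashed. The orange squares (shHDAC2 DOX(-)) lie well below the other groups for HOXC13, HOXD10 and HOXD11, above them for HOXC8, and among them for HOXD4 and HOXD12.

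For 22 of the 41 genes, RefSeq (GRCh38.p14) promoters of 250 bases before to 50 bases after an annotated start were at hand, 32 in all, since some genes have several starts. They are shown for HOXD10 and HOXD11, which changed, for their neighbour HOXD12, which was not called, and for MKX, which had the widest differences. Both strands were searched for the motif TGATNNAT, bound by PBX with HOX. The same search used the MEIS and TGIF motif TGACAG. A further motif was CCAAT, bound by NF-Y. The last was the TATA box, TATAAA. Capitals mark every match.
HOXD10 (chr2:176116528-176116827, plus strand): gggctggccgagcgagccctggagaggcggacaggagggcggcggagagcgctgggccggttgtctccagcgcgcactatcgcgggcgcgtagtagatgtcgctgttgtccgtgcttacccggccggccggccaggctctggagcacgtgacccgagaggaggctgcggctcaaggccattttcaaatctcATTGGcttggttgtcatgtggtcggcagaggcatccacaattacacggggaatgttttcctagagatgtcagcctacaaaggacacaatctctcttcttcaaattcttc
HOXD11 (chr2:176107030-176107329, plus strand): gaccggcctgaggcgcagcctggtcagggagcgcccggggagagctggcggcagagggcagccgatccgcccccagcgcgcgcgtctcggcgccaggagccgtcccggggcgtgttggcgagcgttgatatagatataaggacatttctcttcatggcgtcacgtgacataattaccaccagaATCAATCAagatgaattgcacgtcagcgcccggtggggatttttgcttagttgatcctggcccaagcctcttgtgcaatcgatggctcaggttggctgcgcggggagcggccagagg
HOXD12 (chr2:176099545-176099844, plus strand): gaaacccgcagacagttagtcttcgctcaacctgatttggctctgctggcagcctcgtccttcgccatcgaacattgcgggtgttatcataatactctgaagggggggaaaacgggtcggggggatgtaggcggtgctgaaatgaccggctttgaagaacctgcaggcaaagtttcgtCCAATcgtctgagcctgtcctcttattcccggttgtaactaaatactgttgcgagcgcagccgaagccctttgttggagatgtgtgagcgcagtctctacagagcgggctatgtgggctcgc
MKX (chr10:27745770-27746069, minus strand): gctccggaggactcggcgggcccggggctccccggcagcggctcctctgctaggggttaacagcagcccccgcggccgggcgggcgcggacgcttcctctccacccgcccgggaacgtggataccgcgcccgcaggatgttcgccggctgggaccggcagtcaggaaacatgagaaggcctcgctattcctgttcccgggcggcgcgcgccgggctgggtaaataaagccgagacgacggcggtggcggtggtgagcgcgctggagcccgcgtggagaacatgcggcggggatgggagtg

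The HOXD11 window held TGATNNAT once, at -67 from the start on the reverse strand, HOXD10 and HOXD12 each held CCAAT, at -59 on the reverse strand and at -72 on the forward strand, and the MKX window held none of the 4 motifs. TGATNNAT was found in 2 of the 9 promoters of the 8 genes that were lower on shHDAC2 DOX(-) than on shControl DOX(-) arrays (22.2%), in 5 of the other 23 (21.7%) and in 7.40% of all 35116 promoters of this length. TGACAG was found in 11.1% of the 9, 17.4% of the 23 and 15.8% of all, and CCAAT in 44.4%, 52.2% and 34.6%. TATAAA was found in 11.1%, 4.35% and 11.5%. The ratio of observed to expected CpG had a median of 0.938 over the 9 promoters and 0.868 over the 23, against 0.579 over all promoters, so both sets of members were CpG-rich. A match of letters is not a bound site, and binding was not measured here.

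Among the TALE genes, 5 of 14 (35.7%) rose and 3 (21.4%) fell upon doxycycline in shHDAC2 cells, beside 15% and 15.6% of all clusters. On shHDAC2 DOX(-) arrays 5 (35.7%) were lower and 1 (7.14%) was higher than on shControl DOX(-) arrays, beside 16.3% and 13.7% of all clusters. MKX had log2 signals of 8.69 and 8.77 in shHDAC2 DOX(+), 4.24 and 3.26 in shHDAC2 DOX(-), 9.04 and 8.96 in shControl DOX(+) and 8.89 and 8.85 in shControl DOX(-) cells. MKX, or Mohawk, drives collagen genes of tendon in the mouse. Its shHDAC2 DOX(-) arrays were far below the other 6, one of them below the median cluster signal. MKX rose 31.6-fold upon doxycycline in shHDAC2 cells (log2 difference 4.98 ± 0.26 SE, adjusted p = 1.36e-06) and was 34.8-fold lower on shHDAC2 DOX(-) than on shControl DOX(-) arrays (-5.12 ± 0.26 SE, adjusted p = 1.18e-06), the widest differences of the 41 genes in both comparisons. Between shHDAC2 DOX(+) cells and the 4 shControl arrays it differed by -0.20 (95% interval -0.71 to 0.30).

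MEIS2 measured 8.51 and 8.48 on shHDAC2 DOX(+) and 6.84 and 7.10 on shHDAC2 DOX(-) arrays, against 8.93 and 8.93 on shControl DOX(+) and 8.64 and 8.75 on shControl DOX(-) arrays. MEIS2, a HOX cofactor with roles in heart and palate, was lower in shHDAC2 DOX(-) cells than in every other group, and the shHDAC2 DOX(+) arrays were slightly below all shControl arrays. Its differences were 1.53 ± 0.12 (SE, adjusted p = 2.18e-05) upon doxycycline in shHDAC2 cells and -1.73 ± 0.12 (SE, adjusted p = 1.06e-05) for shHDAC2 DOX(-) against shControl DOX(-) cells, and a second cluster of the gene moved the same way by 0.95 and -0.97. MEIS1 signals were 5.26 and 5.45 with doxycycline and 4.37 and 4.71 without it in shHDAC2 cells, and 5.99 and 5.92 with and 5.75 and 5.74 without it in shControl cells. For MEIS1, a partner of HOXA9 in leukaemia, the 3 levels were ordered without overlap: shHDAC2 DOX(-) lowest, shHDAC2 DOX(+) next, and both shControl groups on top. MEIS1 rose by 0.81 ± 0.14 (SE, adjusted p = 0.00178) upon doxycycline in shHDAC2 cells and differed by -1.20 ± 0.14 (SE, adjusted p = 0.000186) between shHDAC2 DOX(-) and shControl DOX(-) cells. It was also lower on shHDAC2 DOX(+) than on shControl DOX(+) arrays (-0.60 ± 0.14 SE, adjusted p = 0.0493). MEIS1 lost this call without either shHDAC2 DOX(+) array, either shControl DOX(-) array or either shControl DOX(+) array (log2 difference -0.69 to -0.51, adjusted p 0.0806 to 0.244). MEIS1 was lower, too, in shHDAC2 DOX(+) cells than on the 4 shControl arrays (-0.50 ± 0.12 SE, adjusted p = 0.0444). MEIS1 lost this call without either shHDAC2 DOX(+) array, either shControl DOX(-) array or either shControl DOX(+) array (log2 difference -0.59 to -0.40, adjusted p 0.0900 to 0.289).

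MEIS3 had log2 signals of 4.13 and 4.25 in shHDAC2 DOX(+), 4.71 and 4.25 in shHDAC2 DOX(-), 4.22 and 4.14 in shControl DOX(+) and 4.14 and 3.85 in shControl DOX(-) cells. MEIS3 was not called, although its range over the 8 arrays (0.864) was the widest of the 14 genes with no call. PBX3 measured 6.24 and 6.42 on shHDAC2 DOX(+) and 5.92 and 5.96 on shHDAC2 DOX(-) arrays, against 6.28 and 6.25 on shControl DOX(+) and 6.58 and 6.47 on shControl DOX(-) arrays. PBX3, a MEIS and HOX partner, was lower on both shHDAC2 DOX(-) arrays than on any other, with a difference of -0.58 ± 0.11 (SE, adjusted p = 0.00413) against shControl DOX(-) cells. Its rise upon doxycycline in shHDAC2 cells, 0.39 ± 0.11 (SE, adjusted p = 0.0275), was lost without either shHDAC2 DOX(-) array or shHDAC2 DOX(+) replicate 2 (log2 difference 0.30 to 0.41, adjusted p 0.0742 to 0.148). The difference between its doxycycline responses, 0.65, was lost without shHDAC2 DOX(-) replicate 1, shHDAC2 DOX(+) replicate 2, shControl DOX(-) replicate 1 or either shControl DOX(+) array (log2 difference 0.56 to 0.66, adjusted p 0.0569 to 0.0762).

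PBX4 signals were 4.67 and 5.24 with doxycycline and 4.37 and 4.83 without it in shHDAC2 cells, and 5.50 and 5.29 with and 5.45 and 5.33 without it in shControl cells. The shHDAC2 DOX(+) and DOX(-) arrays of PBX4 overlapped, and its call against shControl DOX(-) cells (-0.79 ± 0.21 SE, adjusted p = 0.0194) was lost without shHDAC2 DOX(-) replicate 1 or either shControl DOX(-) array (log2 difference -0.85 to -0.56, adjusted p 0.0560 to 0.123). PBX2 had log2 signals of 6.91 and 6.99 in shHDAC2 DOX(+), 6.60 and 6.46 in shHDAC2 DOX(-), 6.61 and 6.64 in shControl DOX(+) and 6.51 and 6.41 in shControl DOX(-) cells. PBX2 has 6 clusters on the array with only 3 distinct sets of values, and is counted here as 1 gene. It rose by 0.42 ± 0.11 (SE, adjusted p = 0.0189) upon doxycycline in shHDAC2 cells. PBX2 lost this call without shHDAC2 DOX(-) replicate 2 or shHDAC2 DOX(+) replicate 2 (log2 difference 0.35 to 0.37, adjusted p 0.0933 to 0.103). It was higher in shHDAC2 DOX(+) cells than on the 4 shControl arrays (0.40 ± 0.10 SE, adjusted p = 0.0432). This excess of PBX2 was lost when any 1 of the 8 arrays was left out (adjusted p 0.0512 to 0.189, log2 difference 0.36 to 0.45).

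The TALE genes that ran against the others were IRX3, IRX5 and TGIF1. IRX3 measured 5.67 and 5.90 on shHDAC2 DOX(+) and 6.98 and 6.91 on shHDAC2 DOX(-) arrays, against 5.72 and 5.86 on shControl DOX(+) and 5.86 and 5.98 on shControl DOX(-) arrays. IRX3, which sets borders of progenitor domains in the neural tube, was higher on both shHDAC2 DOX(-) arrays than on the other 6. It fell upon doxycycline in shHDAC2 cells (-1.16 ± 0.12 SE, adjusted p = 0.000111), was higher on shHDAC2 DOX(-) than on shControl DOX(-) arrays (1.02 ± 0.12 SE, adjusted p = 0.000255), and its doxycycline responses differed (-1.03 ± 0.17 SE, adjusted p = 0.00319). IRX5 signals were 4.20 and 4.01 with doxycycline and 4.79 and 4.99 without it in shHDAC2 cells, and 3.96 and 4.40 with and 4.61 and 4.56 without it in shControl cells. IRX5, next to IRX3 on chromosome 16, fell upon doxycycline in shHDAC2 cells (-0.78 ± 0.16 SE, adjusted p = 0.00513). Its difference upon doxycycline in shControl cells was -0.40 (unadjusted p = 0.0341, adjusted p = 0.854), and the responses differed by -0.38 (adjusted p = 0.304). On shHDAC2 DOX(-) arrays IRX5 was not called against shControl DOX(-) arrays. TGIF1 had log2 signals of 5.20 and 4.88 in shHDAC2 DOX(+), 5.50 and 5.49 in shHDAC2 DOX(-), 5.47 and 5.48 in shControl DOX(+) and 5.48 and 5.34 in shControl DOX(-) cells. TGIF1, a repressor of TGF-beta and retinoid signalling that is mutated in holoprosencephaly, was lower on both shHDAC2 DOX(+) arrays than on the other 6. It fell by 0.46 ± 0.13 (SE, adjusted p = 0.0254) upon doxycycline in shHDAC2 cells. TGIF1 lost this call without either shHDAC2 DOX(-) array or shHDAC2 DOX(+) replicate 2 (log2 difference -0.46 to -0.30, adjusted p 0.0810 to 0.155).

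IRX1 measured 4.93 and 4.49 on shHDAC2 DOX(+) and 4.63 and 4.39 on shHDAC2 DOX(-) arrays, against 5.15 and 4.85 on shControl DOX(+) and 4.68 and 4.93 on shControl DOX(-) arrays. IRX2 signals were 3.75 and 3.63 with doxycycline and 3.69 and 3.85 without it in shHDAC2 cells, and 3.97 and 3.65 with and 3.82 and 3.51 without it in shControl cells. IRX4 had log2 signals of 3.72 and 3.95 in shHDAC2 DOX(+), 3.57 and 3.71 in shHDAC2 DOX(-), 3.71 and 3.71 in shControl DOX(+) and 3.50 and 3.70 in shControl DOX(-) cells. No comparison called IRX1, IRX2 or IRX4, which lie together on chromosome 5. IRX6 measured 3.46 and 3.49 on shHDAC2 DOX(+) and 3.34 and 3.88 on shHDAC2 DOX(-) arrays, against 3.57 and 3.70 on shControl DOX(+) and 3.71 and 3.66 on shControl DOX(-) arrays. IRX6, on chromosome 16 with IRX3 and IRX5, was not called. In all, 14 of the 41 genes were called in no comparison, with single arrays between 2.74 and 5.20. The share of all clusters called in none was not counted, so nothing particular to these genes is read from the 14.

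**Figure D4:**
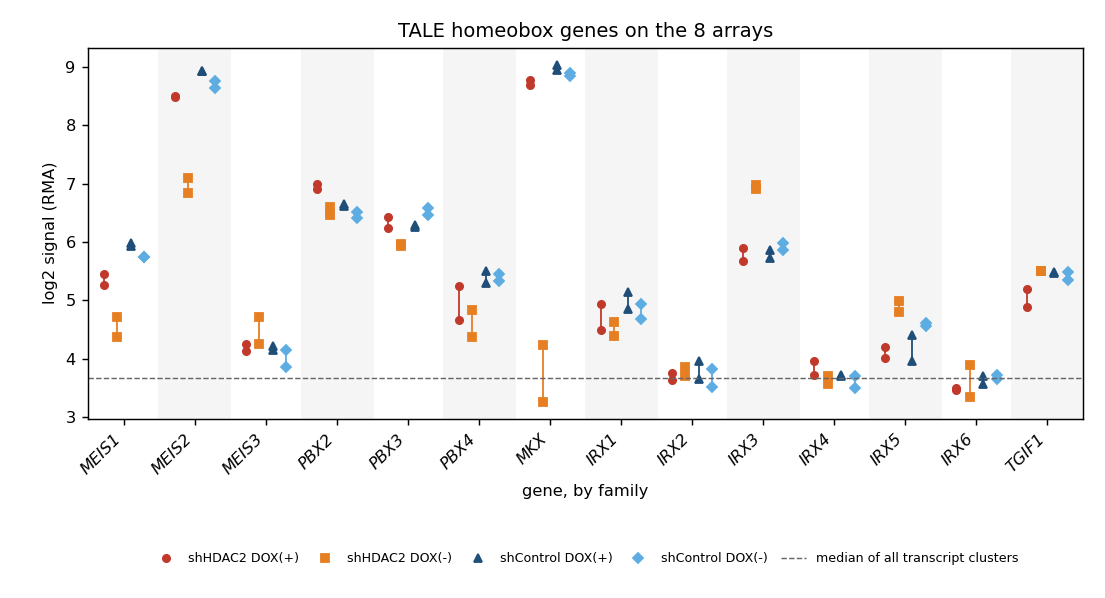
Log2 signals of the 14 TALE genes by family, with 1 point per array, 2 arrays per group joined by a line, and the median cluster signal dashed. MKX shows the widest gap between shHDAC2 DOX(-) (orange squares) and the other groups, MEIS1 and MEIS2 a smaller one in the same direction, and IRX3 a gap in the opposite direction.

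Noncoding genes of the HOX clusters were then described, from a list of 31 of which 14 were measured. Upon doxycycline in shHDAC2 cells 5 rose and 0 fell, against 15% and 15.6% of all clusters. In shHDAC2 DOX(-) cells 4 were lower and 0 were higher than in shControl DOX(-) cells, against 16.3% and 13.7% of all clusters. MIR196B had log2 signals of 6.51 and 6.66 in shHDAC2 DOX(+), 2.88 and 2.89 in shHDAC2 DOX(-), 6.89 and 7.16 in shControl DOX(+) and 6.33 and 6.36 in shControl DOX(-) cells. The signal of MIR196B, the gene of miR-196b in the HOXA cluster, was low and even on both shHDAC2 DOX(-) arrays, below the median cluster signal, and far higher on the other 6. It rose by 3.70 ± 0.13 (SE, adjusted p = 1.11e-07) upon doxycycline in shHDAC2 cells and differed by -3.46 ± 0.13 (SE, adjusted p = 1.77e-07) between shHDAC2 DOX(-) and shControl DOX(-) cells. The arrays measured RNA of the precursor region and not the mature miRNA. RefSeq places MIR196B within HOXA10-AS, which overlaps HOXA10. Whether these genes share signal was not tested.

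The miR-196 family is known to target HOXB8, and its a and b forms share a seed (bases 2 to 8, in capitals), as the mature sequences from RefSeq (GRCh38.p14) show.
hsa-miR-196b-5p (MIR196B, chr7:27169528-27169549, minus strand): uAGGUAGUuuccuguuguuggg
hsa-miR-196a-5p (MIR196A1, chr17:48632532-48632553, minus strand): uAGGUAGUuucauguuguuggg

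MIR196A1 measured 2.19 and 2.70 on shHDAC2 DOX(+) and 2.73 and 2.78 on shHDAC2 DOX(-) arrays, against 2.57 and 2.44 on shControl DOX(+) and 2.61 and 2.56 on shControl DOX(-) arrays. MIR196A1, near HOXB9 on chromosome 17, was below the median cluster signal on all arrays, and like MIR196A2 of the HOXC cluster it was not called. HOXA10-AS signals were 6.44 and 6.41 with doxycycline and 4.45 and 4.98 without it in shHDAC2 cells, and 6.17 and 6.27 with and 6.15 and 6.14 without it in shControl cells. HOXA10-AS was lower on both shHDAC2 DOX(-) arrays than on the other 6, and rose by 1.71 ± 0.16 (SE, adjusted p = 6.09e-05) upon doxycycline in shHDAC2 cells. HOXB-AS3 had log2 signals of 5.88 and 6.08 in shHDAC2 DOX(+), 4.76 and 4.53 in shHDAC2 DOX(-), 5.96 and 5.95 in shControl DOX(+) and 5.94 and 5.998 in shControl DOX(-) cells. HOXB-AS3, whose span holds HOXB5 and HOXB6, rose by 1.34 ± 0.12 (SE, adjusted p = 5.2e-05) upon doxycycline in shHDAC2 cells and differed by -1.32 ± 0.12 (SE, adjusted p = 6.2e-05) between shHDAC2 DOX(-) and shControl DOX(-) cells. HOTAIR measured 4.31 and 4.24 on shHDAC2 DOX(+) and 3.73 and 3.84 on shHDAC2 DOX(-) arrays, against 4.49 and 4.61 on shControl DOX(+) and 4.67 and 4.79 on shControl DOX(-) arrays. HOTAIR, a HOXC transcript known to bind Polycomb proteins, was lowest in shHDAC2 DOX(-) cells, and its shHDAC2 DOX(+) arrays lay below the shControl arrays. HOTAIR rose by 0.49 ± 0.11 (SE, adjusted p = 0.00917) upon doxycycline in shHDAC2 cells. HOXC13-AS signals were 5.38 and 5.12 with doxycycline and 4.91 and 4.26 without it in shHDAC2 cells, and 5.22 and 5.33 with and 5.12 and 5.09 without it in shControl cells. HOXC13-AS overlaps HOXC13 and, upon doxycycline in shHDAC2 cells, rose by 0.66 ± 0.20 (SE, adjusted p = 0.0301). Unlike MIR196B, HOXA10-AS, HOXB-AS3 and HOTAIR, it was not called between shHDAC2 DOX(-) and shControl DOX(-) cells. Nor was it called for the difference between the doxycycline responses.

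**Figure D5:**
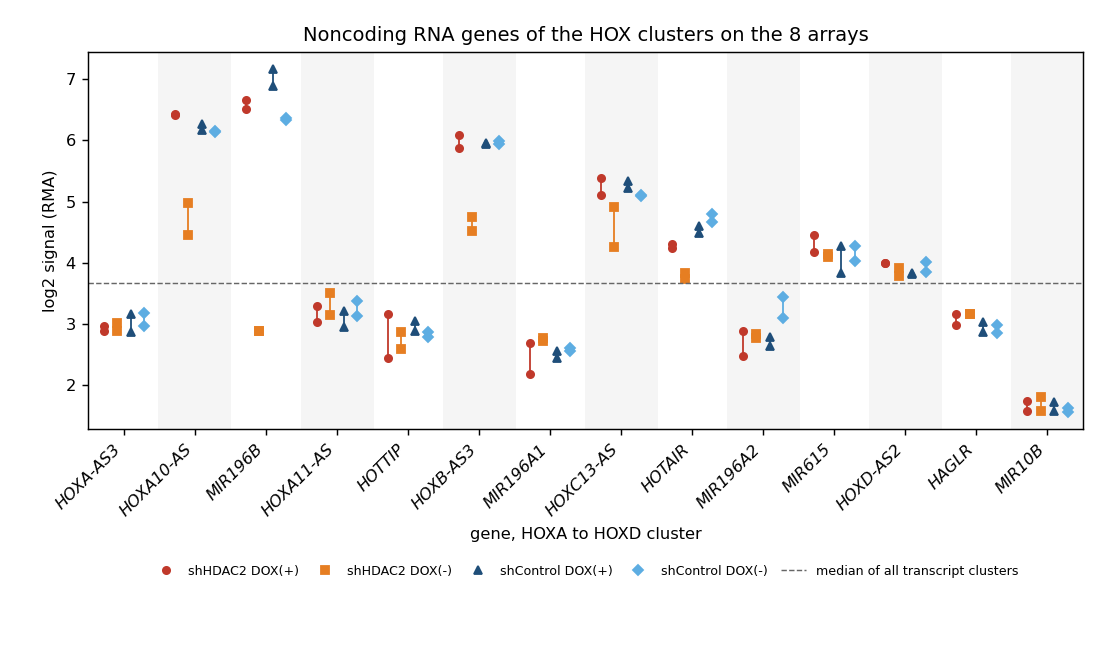
Log2 signals of the 14 noncoding RNA genes of the HOX clusters, with 1 point per array, 2 arrays per group joined by a line, and the median cluster signal dashed. MIR196B shows the widest gap, with the orange squares (shHDAC2 DOX(-)) at 2.88 and 2.89 and the other 6 arrays at 6.33 or more, and MIR196A1, MIR196A2 and MIR10B lie below the dashed line in all groups.

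Of 19 measured genes of a list of 30 Polycomb and trithorax regulators, which hold HOX genes silent or active, 5 rose and 4 fell upon doxycycline in shHDAC2 cells (15% and 15.6% of all clusters). On shHDAC2 DOX(-) arrays 4 were higher and 6 lower than on shControl DOX(-) arrays (13.7% and 16.3% of all clusters). The array as a whole also moved both ways, and nothing particular to the list is read from these counts. SUZ12 had log2 signals of 9.10 and 9.24 in shHDAC2 DOX(+), 7.89 and 8.13 in shHDAC2 DOX(-), 9.53 and 9.39 in shControl DOX(+) and 9.62 and 9.42 in shControl DOX(-) cells. SUZ12, a core subunit of the Polycomb complex PRC2, was lower on both shHDAC2 DOX(-) arrays than on the other 6 (-1.51 ± 0.13 SE, adjusted p = 4.48e-05 against shControl DOX(-) cells). EZH2 measured 7.26 and 7.38 on shHDAC2 DOX(+) and 7.996 and 8.04 on shHDAC2 DOX(-) arrays, against 7.33 and 7.35 on shControl DOX(+) and 7.36 and 7.32 on shControl DOX(-) arrays. EZH2, the methyltransferase of the same complex, was higher on both shHDAC2 DOX(-) arrays (0.68 ± 0.11 SE, adjusted p = 0.00113 against shControl DOX(-) cells). These 2 subunits of 1 complex thus differed in opposite directions. PHC2 signals were 6.08 and 6.38 with doxycycline and 7.28 and 7.29 without it in shHDAC2 cells, and 6.14 and 5.96 with and 5.90 and 6.25 without it in shControl cells. PHC2, a subunit of the Polycomb complex PRC1, was also higher on shHDAC2 DOX(-) than on shControl DOX(-) arrays (1.20 ± 0.15 SE, adjusted p = 0.000372).

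Retinoid signalling, a known inducer of HOX genes, had 4 of 18 listed genes measured. On shHDAC2 DOX(-) arrays 2 were higher and 1 was lower than on shControl DOX(-) arrays (13.7% and 16.3% of all clusters). These are too few to read anything particular to the list. DHRS3 had log2 signals of 4.004 and 4.30 in shHDAC2 DOX(+), 6.47 and 6.36 in shHDAC2 DOX(-), 4.37 and 4.01 in shControl DOX(+) and 4.13 and 4.09 in shControl DOX(-) cells. CRABP2 measured 4.64 and 4.45 on shHDAC2 DOX(+) and 5.74 and 6.32 on shHDAC2 DOX(-) arrays, against 4.42 and 4.64 on shControl DOX(+) and 4.59 and 4.81 on shControl DOX(-) arrays. DHRS3, which reduces retinal, and CRABP2, which carries retinoic acid to the nucleus, were both higher on the shHDAC2 DOX(-) arrays than on the other 6 (by 2.31 and 1.33 against shControl DOX(-) cells, adjusted p = 6.76e-06 and 0.000763). STRA6 signals were 5.47 and 5.53 with doxycycline and 4.62 and 4.50 without it in shHDAC2 cells, and 5.66 and 5.65 with and 5.52 and 5.62 without it in shControl cells. STRA6, the receptor for retinol-binding protein, was lower there (-1.01 ± 0.11 SE, adjusted p = 0.000138), and RDH10 was not called.

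Of the other homeobox genes, 47 of 50 listed were measured, and 5 rose and 9 fell upon doxycycline in shHDAC2 cells (15% and 15.6% of all clusters). On shHDAC2 DOX(-) arrays 7 were higher and 5 lower than on shControl DOX(-) arrays (13.7% and 16.3% of all clusters). These counts are near the shares over all clusters. PAX6 measured 2.54 and 2.59 on shHDAC2 DOX(+) and 3.79 and 4.25 on shHDAC2 DOX(-) arrays, against 2.62 and 2.58 on shControl DOX(+) and 2.43 and 2.71 on shControl DOX(-) arrays. PAX6, a regulator of eye and forebrain, lay below the median cluster signal outside shHDAC2 DOX(-) cells and was higher in them (1.45 ± 0.16 SE, adjusted p = 0.000180 against shControl DOX(-) cells). LHX9 had log2 signals of 4.55 and 4.81 in shHDAC2 DOX(+), 3.85 and 3.80 in shHDAC2 DOX(-), 5.33 and 5.53 in shControl DOX(+) and 5.29 and 5.22 in shControl DOX(-) cells. LHX9 was lower in them (-1.43 ± 0.13 SE, adjusted p = 4.76e-05), and its shHDAC2 DOX(+) arrays stayed below the shControl arrays. PAX3 and LHX2 differed by 1.37 and -1.30 between shHDAC2 DOX(-) and shControl DOX(-) cells (adjusted p = 0.000377 and 0.000106).

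For genes tied to TGIF and MKX function, 12 of 19 listed TGF-beta genes and 9 of 15 listed tendon genes were measured. Of the TGF-beta genes, 4 rose and 5 fell upon doxycycline in shHDAC2 cells (15% and 15.6% of all clusters). SMAD3, a signal transducer, and SMAD7, an inhibitor, fell by 1.19 and 1.26 (adjusted p = 8.56e-05 and 0.000186), and HDAC1, SMAD2 and SMAD4 by 0.53, 0.43 and 0.73. CCN2, SMAD6, SKIL and SKI rose by 0.66, 0.63, 0.47 and 0.43 (adjusted p = 0.00171, 0.00259, 0.0247 and 0.0354). SMAD2, SMAD3, SMAD4 and SMAD7 were higher on shHDAC2 DOX(-) than on shControl DOX(-) arrays, where 13.7% of all clusters were. SMAD6, SKIL and CCN2 were lower there (16.3% of all clusters). In shHDAC2 DOX(+) cells, SKIL was lower and none was higher than on the 4 shControl arrays (4.7% and 1.25% of all clusters). Against shControl DOX(+) cells alone, CCN2 was higher and SKIL lower (0.77% and 2.89% of all clusters). Of the 9 tendon genes, linked to MKX in the mouse, 0 rose and 2 fell upon doxycycline in shHDAC2 cells (15% and 15.6% of all clusters). On shHDAC2 DOX(-) arrays 2 were higher and 1 was lower than on shControl DOX(-) arrays (13.7% and 16.3% of all clusters). With so few genes, nothing particular to the list is read from these counts. TNC had log2 signals of 3.41 and 3.84 in shHDAC2 DOX(+), 10.43 and 10.36 in shHDAC2 DOX(-), 4.16 and 4.30 in shControl DOX(+) and 4.21 and 3.71 in shControl DOX(-) cells. LUM measured 2.66 and 2.68 on shHDAC2 DOX(+) and 7.62 and 7.27 on shHDAC2 DOX(-) arrays, against 3.28 and 3.21 on shControl DOX(+) and 2.90 and 3.14 on shControl DOX(-) arrays. TNC (tenascin C) and LUM (lumican), matrix proteins, ran opposite to MKX, high on both shHDAC2 DOX(-) arrays and low on the other 6 (by 6.44 and 4.43 against shControl DOX(-) cells, adjusted p = 6.67e-08 and 9e-08). EGR1, an immediate early gene, was the 1 lower, in the direction of MKX (-0.82 ± 0.15 SE, adjusted p = 0.00261). DCN and TNMD lay below the median cluster signal on all 8 arrays.

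Called differences of the 41 genes kept their direction under every alternative tried, but not all stayed past the threshold. Leaving aside the methods' t-test, 16 of 25 calls upon doxycycline in shHDAC2 cells, 17 of 22 calls for shHDAC2 DOX(-) against shControl DOX(-) cells and 13 of 16 calls for the difference between the responses held under all alternatives. HOXB2, HOXB3, HOXB5, HOXB6, HOXB8, HOXB9, HOXC10, HOXC13, HOXD10, MEIS2, MKX and IRX3 held in all 3. The 1 call against shControl DOX(+) cells and the 3 calls against the 4 shControl arrays did not hold under all of them.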

How the data were processed

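Total RNA of A172 cells was measured on 8 Affymetrix GeneChip Human Gene 2.0 ST arrays, 2 for each of 4 groups. The labels name Trizol for the extraction, and the methods name Trizol and RNeasy. The deposited values are log2 signals, which the authors made by RMA with Affymetrix Expression Console. Its version is not given in the sources used here, and neither is the genome build. RMA forces the arrays to 1 distribution (array medians 3.64 to 3.68), so a shift of most transcripts in 1 direction would not be seen, and the number of arrays limits the precision.

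From the 53617 deposited clusters, the 16098 with exactly 1 gene symbol in the platform annotation, which can be old, were fitted with limma 3.58.1 in R 4.3.3, with 1 mean per group, moderated variances (4 residual degrees of freedom, 4.83 from the prior), and called at a Benjamini-Hochberg adjusted p under 0.05. The 37519 other clusters were fitted in 1 alternative. They also entered the array correlations and medians, the median cluster signal, the second quantile normalization and the median centring. Values on every array are given for each member called in at least 1 comparison or with a group mean at or above the median cluster mean (38 genes). The plan for the other gene lists was up to 4 called genes with the largest differences and no overlap between groups. More genes are named for the noncoding and TGF-beta lists, and some of the named genes were not called. The members and lists were chosen with earlier results of these data known. Promoters, microRNAs and gene overlaps come from RefSeq GRCh38.p14. Alternatives were a replicate block, each array left out, only the arrays compared, brighter clusters, every row, 1 cluster per gene, renormalization, median centring, a variance trend with robust moderation, and the methods' t-test.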

Additional observations from a re-analysis of the deposited data

Results flagged for a closer look

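The doxycycline response of 16 genes differed between shHDAC2 and shControl cells by a test of the difference itself (limma's interaction contrast, adjusted p under 0.05 over all 16098 clusters). All 16 rest on the shHDAC2 DOX(-) arrays, which were the least like the rest. For these arrays and the shControl DOX(+) arrays the source label names the other construct than the title and treatment, so these differences depend on the title and treatment. The shHDAC2 response exceeded the shControl response, on the log2 scale, by 1.59 for HOXB2, 2.46 for HOXB3, 1.07 for HOXB4, 4.48 for HOXB5, 3.87 for HOXB6, 0.88 for HOXB7, 3.26 for HOXB8 and 3.08 for HOXB9. Outside the HOXB cluster it exceeded it by 0.67 for HOXC10, 1.89 for HOXC13, 2.15 for HOXD10, 0.85 for HOXD11, 1.29 for MEIS2, 0.65 for PBX3 and 4.85 for MKX. For IRX3 the difference was -1.03, a fall in shHDAC2 cells. Groups of 2 arrays are too small to test single arrays as outliers.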

How the results depend on the processing

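Of 1107 values of the 67 called differences under the alternatives, 0 reversed and 168 no longer passed the threshold, 119 of 1056 without the methods' t-test. Of the 48 clusters, 31 were called upon doxycycline in shHDAC2 cells, 23 for shHDAC2 DOX(-) against shControl DOX(-) cells, 8 for shHDAC2 DOX(+) against the 4 shControl arrays, 1 for shHDAC2 against shControl cells with doxycycline, 17 for the difference between the responses and 0 for doxycycline in shControl cells. Upon doxycycline in shHDAC2 cells the count was 20 with only the arrays compared and 18 with every row of the table. With the methods' t-test after adjustment it was 1, as it was for shHDAC2 DOX(-) against shControl DOX(-) cells, and it was 0 for both other comparisons between constructs. For shHDAC2 DOX(+) against the 4 shControl arrays it was 3 with a replicate block, with only the arrays compared and with 1 cluster per gene, 2 with median centring, and 0 with every row. Most of the 8 are near-identical PBX2 clusters close to the threshold. For shHDAC2 against shControl cells with doxycycline it was 0 with every row or a second quantile normalization and 4 with a variance trend and robust moderation. With single arrays left out, the counts ranged from 18 to 27 upon doxycycline in shHDAC2 cells (18 without shHDAC2 DOX(-) replicate 1, 20 without replicate 2), 18 to 23 for shHDAC2 DOX(-) against shControl DOX(-) cells, 13 to 17 for the difference between the responses, 0 to 3 against the 4 shControl arrays, 0 to 2 with doxycycline and 0 to 0 for doxycycline in shControl cells. The cause was not tested.

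The labels do not say that replicate numbers pair samples, and deviations of same-numbered arrays correlated by 0.00669 to 0.214. With a replicate block, 32 clusters were called upon doxycycline in shHDAC2 cells, 24 for shHDAC2 DOX(-) against shControl DOX(-) cells, 17 for the difference between the responses and 1 for shHDAC2 against shControl cells with doxycycline. The block ended the call of HOXB4 for the difference between the responses (log2 difference 1.07, adjusted p = 0.052) and of no other of the 67 called differences. Genes near the median cluster signal have uncertain sizes of difference.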
